A study of Mus musculus with 4 samples.

Results

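Sod2, Gclm and Gsr encode enzymes of the defence against superoxide and peroxides. They were picked by their symbols, with earlier results of these data known, from a table of acetylation of histone H3 at lysine 9 (H3K9ac). All 3 genes had a row, among 9615 genes in all. H3K9ac is a mark of active promoters and enhancers, and it was measured by chromatin immunoprecipitation and sequencing (ChIP-seq) in leukaemic mouse bone marrow. Both groups carried floxed alleles of the transcriptional repressor gene Gfi1b on both chromosomes, Gfi1b(fl/fl), and the NUP98-HOXD13 fusion transgene, Nup98(tg). They differed in MxCre, a Cre recombinase under the interferon-inducible Mx1 promoter, which was absent in MxCre(wt) marrow (the WT library) and present in MxCre(tg) marrow (the tg library). WT is the submitters' name, although these mice also carried the leukaemia transgene. There was 1 H3K9ac library per genotype. The animals' age, their number per library and any treatment that induced Cre were not in the labels, and red cells were lysed before fixation.

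Superoxide leaks from the respiratory chain and is made on purpose by phagocytes. SOD2, the manganese superoxide dismutase of the mitochondrial matrix, turns it into hydrogen peroxide, which peroxidases and catalase remove. Glutathione, the main small thiol of the cell, supplies electrons for part of this. GCLM is the modifier subunit of glutamate-cysteine ligase, the first and rate-limiting enzyme of glutathione synthesis, and GSR is the reductase that returns oxidised glutathione to its reduced form with electrons from NADPH. In marrow, red cell precursors, which handle iron and haem, and granulocytes, which make superoxide, both rely on this system.

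The sequences just before the starts of Sod2 and Gclm are shown because H3K9ac is found around active promoters. Of the 3 members, 2 matched the RefSeq promoter windows of GRCm38.p6. The windows searched are the 250 bases before each start of the deposited table, on the plus strand, from 13007589 to 13007838 on chromosome 17 for Sod2 and from 122245307 to 122245556 on chromosome 3 for Gclm. For Gclm, RefSeq places the gene start earlier, at 122245487, so the last 70 bases of its window lie inside the RefSeq gene and are not printed. Shown are chr17:13007589-13007838 for Sod2 and chr3:122245307-122245486 for Gclm. Capitals mark GC boxes (GGGCGG, or CCGCCC on the other strand) and, in Gclm, also the 9-letter match GCACCGTCA to the antioxidant response element.
Sod2: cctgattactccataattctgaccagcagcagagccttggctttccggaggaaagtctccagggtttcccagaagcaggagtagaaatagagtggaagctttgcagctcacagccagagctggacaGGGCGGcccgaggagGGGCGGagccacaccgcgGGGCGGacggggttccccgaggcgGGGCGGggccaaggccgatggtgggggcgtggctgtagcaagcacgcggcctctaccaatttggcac
Gclm: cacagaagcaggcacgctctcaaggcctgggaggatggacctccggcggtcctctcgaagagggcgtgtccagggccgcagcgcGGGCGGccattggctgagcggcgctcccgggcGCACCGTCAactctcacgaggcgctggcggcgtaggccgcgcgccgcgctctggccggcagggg
The window of Sod2 held 4 GC boxes and that of Gclm 3, of which 2 lie in the last 70 bases, a motif present in 32.7% of the 32851 windows of the same length. The antioxidant response element, searched as TGACNNNGC and its complement GCNNNGTCA, had 1 match in Gclm (chromosome 3, 122245423 to 122245431, 134 to 126 bases before the deposited start) and 0 in Sod2. It is the motif of NRF2, the transcription factor that drives many glutathione genes, and 10.2% of all windows held it. The letters AGATAA, a motif of GATA factors (9.99% of windows), CCGGAAG, a motif of ETS factors (6.91%), and TGANTCA, the AP-1 motif (6.75%), each searched on both strands, had 0 matches in both windows. Gclm had 41 CG dinucleotides and a GC content of 78.4%, and 1.09% of windows held as many CG dinucleotides or more. These values cover its whole window of 250 bases, including the last 70 bases inside the RefSeq gene. Sod2 had 15 CG dinucleotides, reached by 27.3% of windows, and 63.6% GC, against medians of 6 and 52.4% over all windows. A match describes these letters only. The deposited table does not give the positions of its probes, the stretches over which reads were counted, so no value below can be assigned to these windows.

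The values rest on few reads. The deposited log2 values were read as reads scaled to 1000000, a total that no header or label states. Each value was a multiple of 1 read, worth 3.23 scaled reads in WT and 6.11 in tg. On this reading the totals behind the scaling were 309649 reads in WT and 163712 in tg. The median gene with 1 probe held 22 reads in WT and 11 in tg. Intervals below are 95% counting intervals, and they cover counting error only, since PCR copies were not set apart by molecular identifiers. With 1 library per genotype there is no replicate error and no test, and "higher" and "lower" describe these 2 libraries. Gfi1b, the floxed gene, had 12 reads in WT and 108 in tg over 4 probes. Without probe positions this does not check the deletion. The libraries also differed in the Y-linked genes Uty (28 reads in WT, 0 in tg) and Ddx3y (22 and 1).

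H3K9ac at all 3 genes was higher in the library with Mx-Cre. The single probe of Sod2 (ENSMUSG00000006818; chromosome 17, 13007839 to 13018119) held 13 WT reads and 23 tg reads, or 42.0 and 140.5 scaled reads. The tg level was 3.35 times the WT level (95% interval 1.63 to 7.19), a log2 ratio of 1.74. The probe of Gclm (ENSMUSG00000028124; chromosome 3, 122245557 to 122269984) held 21 WT reads and 37 tg reads, or 67.8 and 226 scaled reads. Its ratio was 3.33 (1.90 to 5.99), a log2 ratio of 1.74. Both genes thus had more reads in tg even before scaling, although tg was, on the scale worked out here, the shallower library by a factor of 1.89. In a mixed tissue such as marrow, more acetylation per cell and more cells that carry the mark cannot be told apart.

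Gsr (ENSMUSG00000031584; chromosome 8, 33652523 to 33698163) was measured by 3 probes. These held 5, 7 and 20 reads in WT and 6, 14 and 21 in tg, in order of their reads, since the table does not tie a probe of one library to a probe of the other. In scaled reads they were 16.1, 22.6 and 64.6 in WT and 36.6, 85.5 and 128 in tg. In each rank the tg probe was higher, while the probes of the 2 libraries overlapped in level. Summed over the probes, Gsr had 32 reads in WT and 41 in tg, a ratio of 2.42 (1.49 to 3.98). The deposited log2 means were 4.84 (SD over probes 1.04) in WT and 6.21 (SD 0.92) in tg, a log2 ratio of 1.36. None of the 3 intervals includes 1. The genes were chosen with these differences known, so their intervals describe the counting error and test nothing. Pairs of genes were compared by dividing one tg/WT ratio by the other, in which the library totals cancel, with an exact conditional 95% interval. The Sod2 ratio was 1.00 times that of Gclm (0.390 to 2.64) and 1.38 times that of Gsr (0.565 to 3.45), and the Gclm ratio was 1.38 times that of Gsr (0.640 to 2.97). These intervals include 1, so an order of the 3 genes was not detectable at this depth. In all, 20 pairs of genes were compared in this way with no adjustment for their number, and 9 intervals included 1. Some pairs rest on the same probe values, so these are not 20 separate comparisons.

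**Figure D1:**
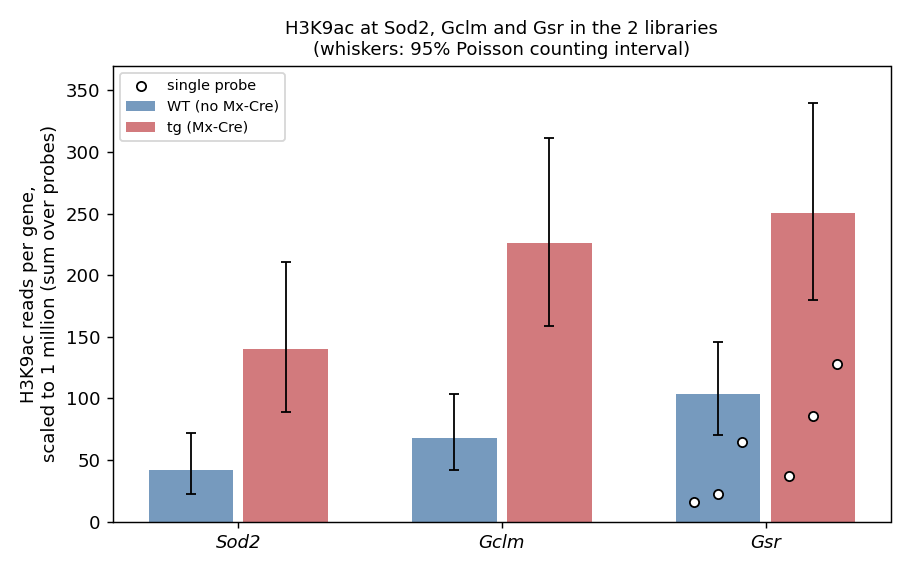
Scaled H3K9ac reads (y axis, per 1000000 reads, summed over a gene's probes) at Sod2, Gclm and Gsr in the WT and tg libraries; whiskers are 95% Poisson counting intervals and white points are the 3 probes of Gsr. The tg bar is above the WT bar at each gene, with 140.5 against 42.0 scaled reads at Sod2, 226 against 67.8 at Gclm and 250.4 against 103 at Gsr.

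Differences of this size were not rare in the table. Of all 9615 genes, 16.5% were higher in tg by 2-fold or more and 15.8% lower by as much. The median log2 ratio over all genes was 0.05. A ratio at least as high as that of Sod2 was found at 709 genes (7.37%), as that of Gclm at 711 (7.39%) and as that of Gsr at 1008 (10.5%). Genes with the same number of probes give a closer setting. Among the 7423 genes with 1 probe, 14.3% were at least 2-fold higher, and 5.86% had a ratio at least as high as Sod2 and 5.89% as Gclm. Among the 386 genes with 3 probes, 29.0% were at least 2-fold higher, and 21.0% had a ratio at least as high as Gsr. Gsr thus stood less far out among genes with its number of probes than among all genes. The members were chosen with these differences known, so their shared direction is a description.

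**Figure D2:**
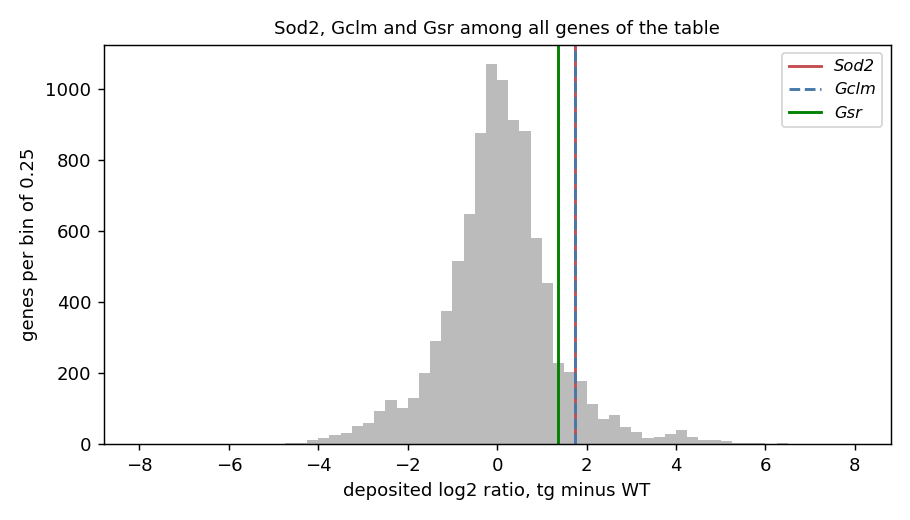
Histogram of the deposited log2 ratio, tg minus WT (x axis), over all 9615 genes of the table in bins of 0.25 (y axis, genes per bin), with vertical lines at Sod2 and Gclm (both 1.74) and Gsr (1.36). The 3 lines lie on the right shoulder of a distribution centred near 0.05.

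The genes around the 3 members differed from one locus to the next. Of the 10 other genes listed within 100000 bp, 2 were beyond 2-fold on the higher side in tg and 1 on the lower side. The shares over all genes were 16.5% and 15.8%. Some of the 10 share probe values with each other, so they are not 10 separate measurements. Of them, 0 had the same values as the member beside them, so no member was measured by a probe set identical to a neighbour's. Near Sod2, Wtap, which encodes a subunit of the RNA methyltransferase complex and lies 15293 bp away, had 71 reads in WT and 40 in tg, a ratio of 1.07 (0.705 to 1.59). The Sod2 ratio was 3.14 times that of Wtap (1.34 to 7.49). The members were chosen with their ratios known. Intervals of a member's ratio over a neighbour's, here and at the other loci, therefore describe counting error and test nothing. Acat2, an acetyl-CoA acetyltransferase gene, had 14 and 3 reads (ratio 0.405, 0.0747 to 1.45). Tcp1, a chaperonin gene, and Mrpl18, a mitochondrial ribosomal protein gene, had identical values of 55 reads in WT and 28 in tg (ratio 0.963, 0.588 to 1.54). The Sod2 ratio was 3.48 times theirs (1.43 to 8.61) and 8.26 times that of Acat2 (1.76 to 50.9). Sod2 was the 1 gene of its stretch that was 2-fold higher.

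At the Gclm locus the neighbours were on the other side of equality. Dnttip2, 4430 bp beyond the end of Gclm, had 24 reads in WT and 7 in tg (ratio 0.552, 0.201 to 1.32), and the microRNA gene Mir760 had 29 and 8 (0.522, 0.206 to 1.17). The gene model Gm17494, which overlaps Gclm, has 2 probes of 24 and 29 reads in WT and 7 and 8 in tg, the same numbers as at Dnttip2 and Mir760. Its ratio was 0.535 (0.280 to 0.964). The Gclm ratio was 6.04 times that of Dnttip2 (2.04 to 19.2), 6.39 times that of Mir760 (2.28 to 18.9) and 6.23 times that of Gm17494 (2.66 to 14.8). The neighbours, which rest on the same 2 probe values, were thus on the lower side where Gclm was higher.

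At the Gsr locus genes on both sides were higher as well. Ubxn8, a gene of the endoplasmic reticulum membrane 10547 bp before Gsr, had 19 reads in WT and 26 in tg, a ratio of 2.59 (1.38 to 4.95). Gtf2e2, which encodes a subunit of the general transcription factor TFIIE, lies 33751 bp beyond the end of Gsr and had 34 and 36 reads, a ratio of 2.0 (1.22 to 3.30). Ppp2cb, a phosphatase subunit gene on the far side of Ubxn8, had 23 and 10 reads (0.822, 0.349 to 1.80). The Gsr ratio was 0.936 times that of Ubxn8 (0.411 to 2.12) and 1.21 times that of Gtf2e2 (0.595 to 2.46), while it was 2.95 times that of Ppp2cb (1.14 to 7.91). A higher level in tg was therefore found at Gsr and at the nearest listed gene on each side.

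**Figure D3:**
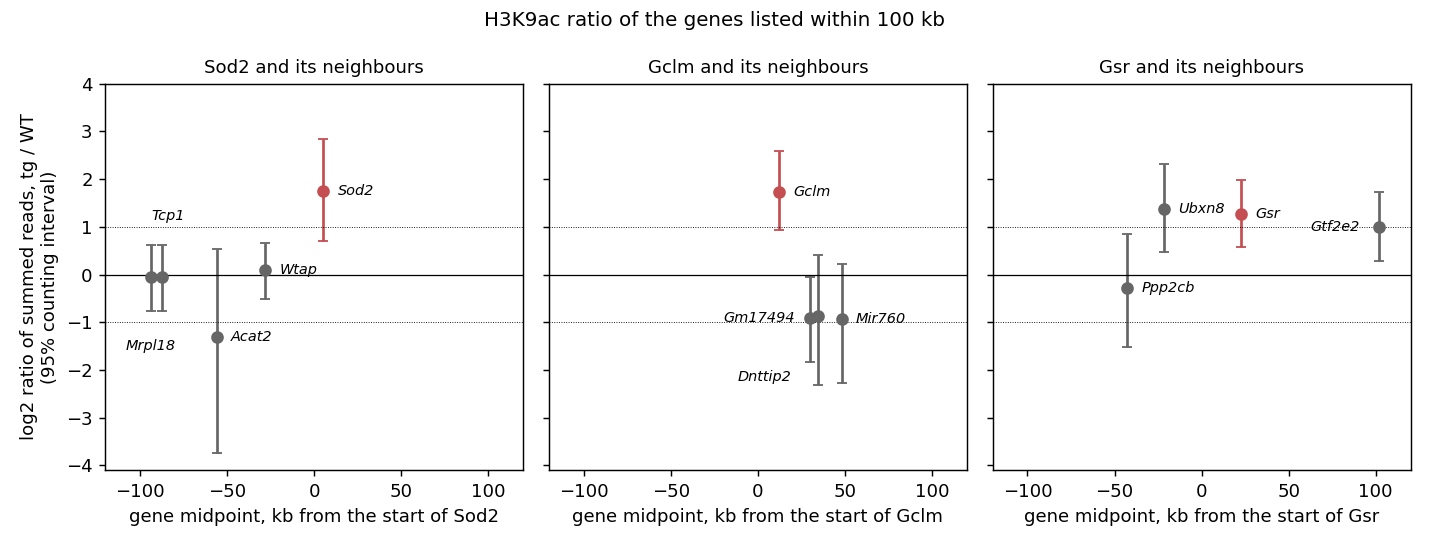
Log2 ratio of summed reads, tg over WT (y axis, with 95% counting intervals), of Sod2, Gclm and Gsr (red) and of the genes listed within 100 kb (grey), by the gene's midpoint in kb from the member's start (x axis). Dotted lines mark 2-fold; Sod2 and Gclm stand above all their neighbours, while Ubxn8 (ratio 2.59) and Gtf2e2 (2.0) lie near Gsr (2.42).

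The other genes of the redox system differed in both directions. Of 107 listed genes in 8 roles, 72 had a row. By the 2-fold rule 15 of these (20.8%) were higher in tg and 10 (13.9%) lower, near the 16.5% and 15.8% of all genes. Their median log2 ratio was 0.18 against 0.05 over all genes. Without Sod2, Gclm and Gsr, 12 of 69 were higher (17.4%) and 10 lower (14.5%). At 17 of the 25 genes beyond 2-fold the counting interval excluded 1. These genes were picked by the size of the same ratios, so this count describes counting error and tests nothing. With a 1.5-fold rule 23 were higher and 15 lower (28.7% and 25.4% of all genes), and with a 3-fold rule 7 and 4 (8.49% and 7.99%). After centring on the median of all genes, 14 were 2-fold higher and 10 lower (15.8% and 16.7% of all genes). Among the 37 redox genes at or above the table's median level, 10 were 2-fold higher, a larger share than the 10.2% of the whole table at that level. The 4 lower were near the 10.8% of the whole table at that level. Sod2 and Gclm are among these 10, and Gsr lies below that level. Of the 35 others at that level, 8 were higher, also a larger share than 10.2%. Without the level filter the others were near the share of all genes (17.4% against 16.5%). The lists were chosen with earlier results of these data known, so these shares are a description, and an excess was not tested. The listed genes with a higher deposited ratio than Sod2 were 4, namely Glrx5, Blvrb, Rac1 and Taldo1.

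The role lists below are short, and their counts cover only the listed genes with a row. Each count stands against 16.5% of all genes 2-fold higher and 15.8% lower. The counts with Gclm, Gsr and Sod2 include genes chosen with their differences known. The list for glutathione synthesis also holds genes of the glutathione cycle, of its breakdown and of transport. Its median log2 ratio was 0.92, against 0.05 over all genes. This is the value of Chac2, a gene of glutathione breakdown (21 reads in WT and 21 in tg; ratio 1.89, 0.983 to 3.64). In this list, 3 of 7 genes including Gclm were at least 2-fold higher and 0 were lower. Besides Gclm these were Oplah, which encodes 5-oxoprolinase of the glutathione cycle (18 reads in WT and 20 in tg; ratio 2.10, 1.06 to 4.21), and Ggct, a gamma-glutamylcyclotransferase gene (5 and 7 reads), whose interval includes 1 (2.65, 0.723 to 10.6). Gclc, which encodes the catalytic subunit of the same ligase as GCLM, had 24 WT and 14 tg reads, a ratio of 1.10 (0.528 to 2.22). The Gclm ratio was 3.02 times that of Gclc (1.19 to 7.73), a pair chosen with both values known. Gss, the gene of glutathione synthetase, which completes the tripeptide, had 19 and 15 reads (1.49, 0.706 to 3.10), and the Gclm ratio was 2.23 times its ratio (0.864 to 5.79).

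Of the 8 genes for glutathione reduction, peroxidases and glutaredoxins, 3 including Gsr were higher and 0 lower (median 0.22). Glrx5, a mitochondrial glutaredoxin gene needed for iron-sulphur cluster assembly, held 3 and 14 reads at its probes in WT and 16 and 25 in tg (ratio 4.56, 2.54 to 8.56). The Gsr ratio was 0.531 times that of Glrx5 (0.238 to 1.17). Gpx7 had 5 and 7 reads, and its interval includes 1 (2.65, 0.723 to 10.6). The glutathione peroxidase gene Gpx1, which uses the glutathione that GSR restores, had 119 and 69 reads (1.10, 0.803 to 1.49). The Gsr ratio was 2.21 times that of Gpx1 (1.23 to 3.98), again a pair chosen with both values known. Gpx4, the peroxidase gene for membrane lipids, had 25 and 15 reads, and the Gsr ratio was 2.14 times its ratio (0.905 to 5.10). Among 10 glutathione transferase genes, which couple glutathione to other molecules, 2 were higher and 0 lower (median 0.21). They were Mgst2 (21 reads in WT and 32 in tg; 2.88, 1.61 to 5.26) and Gstz1 (14 and 15; 2.03, 0.912 to 4.53).

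Sod2 was the 1 gene beyond 2-fold of the 3 with a row (5 listed) for superoxide dismutases and catalase. Sod1, the cytosolic dismutase gene, had 38 reads in WT and 33 in tg (1.64, 0.998 to 2.69), and the Sod2 ratio was 2.04 times that of Sod1 (0.831 to 5.10). Cat, the catalase gene, had 39 and 18 reads (0.873, 0.470 to 1.56), and the Sod2 ratio was 3.83 times that of Cat (1.46 to 10.2). This pair, too, was chosen with both values known.

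The 15 peroxiredoxin, thioredoxin and methionine sulphoxide reductase genes went both ways, with 3 higher and 3 lower (median 0.43). Prdx2, the peroxiredoxin abundant in red cells, had 32 reads in WT and 39 in tg (2.31, 1.41 to 3.80), and Msra, a methionine sulphoxide reductase gene, 24 and 27 (2.13, 1.18 to 3.85). Txnip, the thioredoxin-interacting protein gene, was 2-fold higher by its deposited log2 ratio of 1.08, but its summed reads gave 1.33 (0.919 to 1.90). Lower in tg were Prdx5 (37 and 9 reads; 2.17-fold lower, 1.03 to 5.12), Msrb2 (33 and 6; 2.91-fold, 1.20 to 8.49) and Msrb3 (12 and 1), whose interval includes 1 (6.34-fold, 0.939 to 271).

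Of the 14 genes of the NRF2 pathway, 1 was higher and 3 were lower (median 0.14). Those lower were Bach1, a repressor that competes with NRF2 for antioxidant response elements (38 WT and 8 tg reads; 2.51-fold lower, 1.15 to 6.23), its relative Bach2 (58 and 10 over 4 probes; 3.07-fold, 1.55 to 6.73), and the small MAF gene Maff (29 and 7; 2.19-fold, 0.939 to 5.92). Blvrb, the biliverdin reductase B gene of haem breakdown, was the 1 higher, with 8 and 23 reads (5.44, 2.35 to 14.1). The other 10 were within 2-fold. Fth1, the ferritin heavy chain gene, had 29 and 27 reads (1.76, 1.003 to 3.08), Mafk 46 and 32 (1.32, 0.811 to 2.11) and Blvra 12 and 9 (1.42, 0.528 to 3.67). Nfe2l2, which encodes NRF2, had 74 reads in WT and 35 in tg (0.895, 0.581 to 1.36), and Keap1, its inhibitor gene, had 58 and 38 (1.24, 0.801 to 1.90). These 5 genes, and above Chac2, Gclc, Gss, Gpx1, Gpx4, Sod1 and Cat, were named after their values were seen.

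NADPH carries the electrons that GSR uses, and NADPH oxidase consumes it to make superoxide. Of 10 supply genes, 1 was higher and 2 were lower (median -0.22). Taldo1, the transaldolase gene of the pentose phosphate pathway, had 16 and 29 reads (3.43, 1.80 to 6.76). G6pdx, the X-linked gene of the enzyme that opens this pathway, had 36 and 5 reads (3.81-fold lower, 1.49 to 12.4), and Idh2, the mitochondrial isocitrate dehydrogenase gene, 18 and 3 (3.17-fold lower, 0.926 to 16.8). Of 5 NADPH oxidase genes, 1 was higher and 2 were lower (median -0.54). The subunit gene Cyba had 55 and 10 reads (2.91-fold lower, 1.47 to 6.40). The GTPase gene Rac1 was higher by its deposited log2 ratio of 2.21, with 1 read in WT and 9 in tg at the lower probe of each library. The taller probe had 59 and 39, and its summed ratio was 1.51 (1.01 to 2.25).

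**Figure D4:**
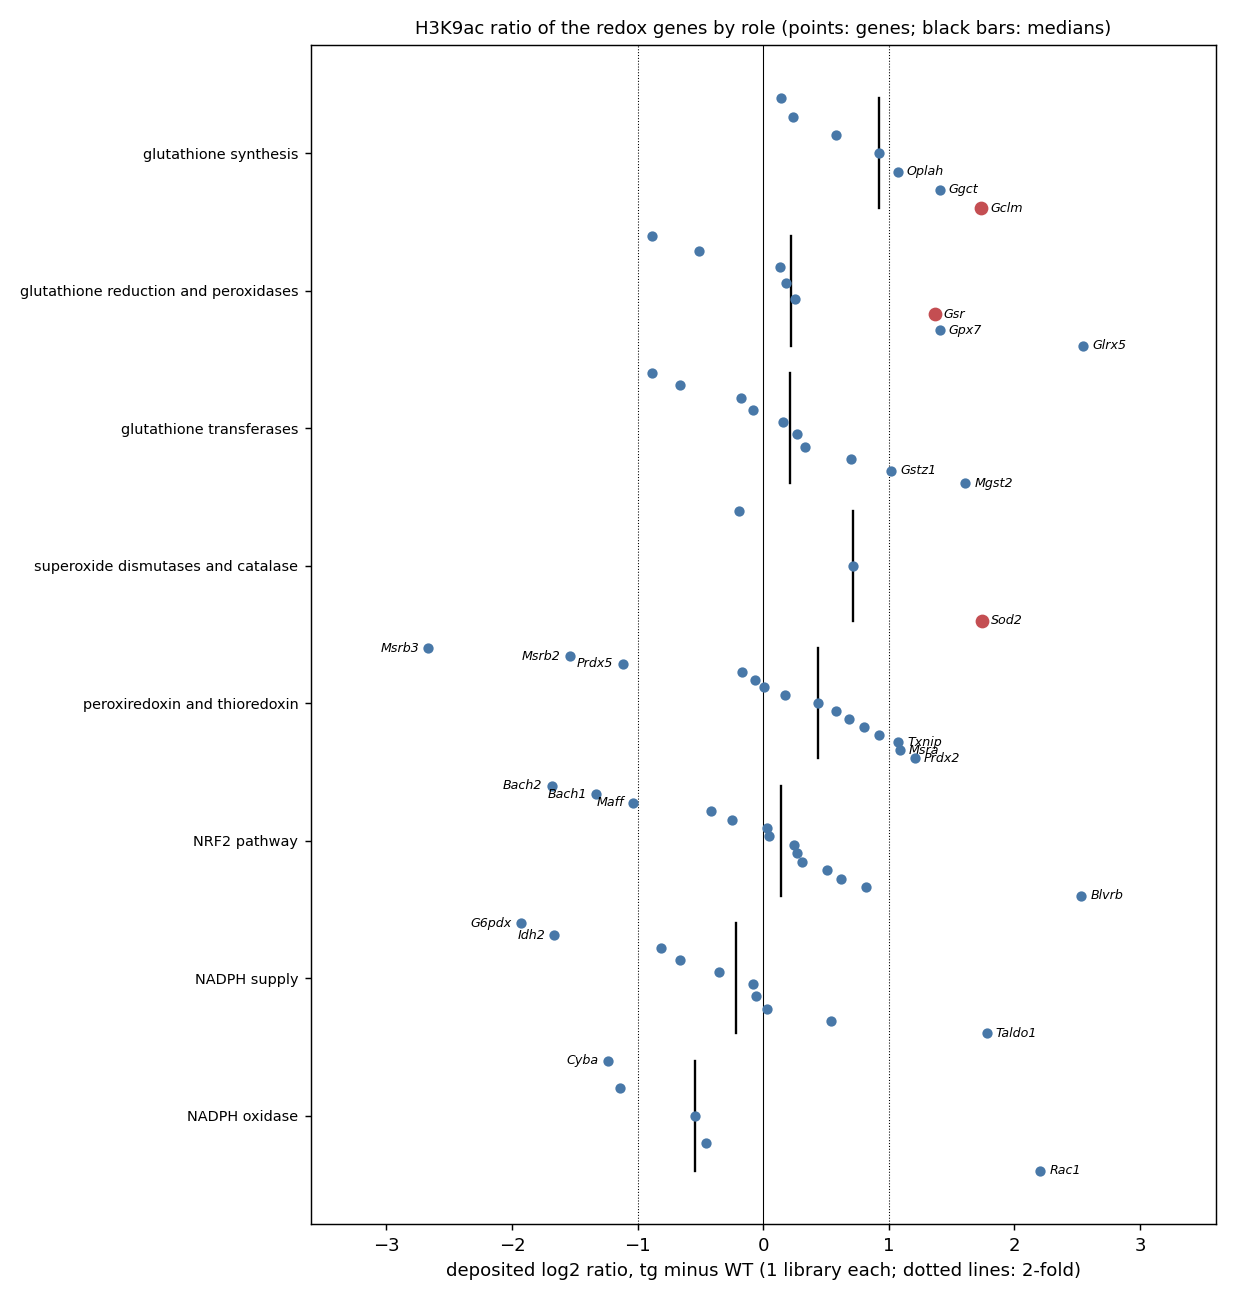
Deposited log2 ratio, tg minus WT (x axis), of the 72 redox genes with a row, grouped by role (y axis); red points are Sod2, Gclm and Gsr, black bars are the medians of each role, and genes reported beyond 2-fold (dotted lines) are named. The points spread to both sides of 0, with 15 genes at least 2-fold higher (20.8%, against 16.5% of all genes) and 10 at least 2-fold lower (13.9%, against 15.8%).

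Markers of blood lineages differed between the same 2 libraries. Of 15 erythroid genes with a row (20 listed), 14 were at least 2-fold higher in tg (16.5% over all genes), with a median log2 ratio of 3.59. The summed level of the 14 with recovered reads was 882 scaled reads in WT and 4105 in tg. Both the count and the sum include Gfi1b, the floxed gene itself (12 reads in WT and 108 in tg). Epor, Alas2 and Rhag were at 0 reads in WT, where 3 reads, the limit that a count of 0 allows, correspond to 9.69 scaled reads. The 1-probe genes of the table had 9 or more reads over both libraries. Epor, Alas2, Rhag, Gata1 (1 read in WT and 13 in tg) and Hba-a1 (4 and 17) reached this through tg. Among genes with more probes, Hemgn, Slc4a1, Ermap, Gfi1b and Ank1 held 6 or fewer reads at every probe in WT. This floor of 9 reads thus fixed at least part of the count and the median. Among erythroid genes with recovered reads, WT reads were highest at Nfe2 (99 in WT and 103 in tg), Tfrc (82 and 53) and Klf1 (31 and 40). Their summed ratios were 1.97 (1.48 to 2.62), 1.22 (0.849 to 1.75) and 2.44 (1.49 to 4.04). Nfe2, higher by its deposited log2 ratio of 1.31, was thus just under 2-fold by summed reads. Of 16 neutrophil genes listed, 5 had a row and these 5 were 2-fold lower, against 15.8% over all genes (median -1.99; summed level 313 in WT and 55.0 in tg; 0 genes at 0 reads in either library). Each of them had 12 or more reads in WT and 3 or fewer in tg, so genes of this list with a row were there through WT, and their shared direction was largely fixed by that floor. Of 6 monocyte and macrophage genes with a row (12 listed), 2 were lower and 1 higher (median 0.26; summed level 1712 and 403; 0 genes at 0 reads). The lower sum came from Irf8 and Ly86 (1582 and 189), and the other 4 genes summed to 129 in WT and 214 in tg. The part of these lineage differences in the values of Sod2, Gclm, Gsr and the other redox genes was not tested.

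Likeness was taken as the distance between genes in their 2 deposited log2 means, among named genes with the same number of probes. With 2 values per gene it says little beyond equal reads. Nearest to Sod2 were Pfn4, a profilin gene, and Tmem208, with 13 reads in WT and 24 in tg each (distance 0.06), and then Pppde2 and Xrcc6, a DNA repair gene, with 13 and 22 (distance 0.06). Nearest to Gclm were Cdc123 and Nudt5 with 21 and 38 reads each (0.04), followed by Fzr1 and the histone gene Hist1h2bn with 22 and 34 (0.14). Nearest to Gsr were Hirip3 (0.03), Tspan32 (0.12) and Slc25a11, the mitochondrial oxoglutarate carrier gene, which has been linked to glutathione transport (0.13). Their log2 ratios were 1.41, 1.43 and 1.20.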

How the data were processed

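H3K9ac and rabbit IgG ChIP-seq libraries were labelled for 2 genotypes, 4 samples in 4 groups of 1. The deposited table matched the 2 H3K9ac libraries by their codes; the IgG libraries were not analysed here. Its values are, per the file headers, means and standard deviations over a gene's probes. They are log2 values deposited by the authors, and their scale was worked out here: 100% of the 7423 genes with 1 probe were whole multiples of 1 read (within 0.01 read) in both libraries, with 0 reads entered as 0.9. The submitters' processing notes name CASAVA 1.8.2, FastQC, BWA and SAMtools, and as builds GRCm38 and mm10. For probe placement and duplicate handling, the step was not given in the sources used here.

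Reads per probe were recovered for genes with up to 4 probes where 1 set of whole numbers fitted the mean and SD (checked on simulated data). The table's 1-probe genes had 9 or more reads, both libraries together. The main value was the difference of log2 values, tg minus WT. Ratios of summed reads, scaled by the totals, have exact conditional binomial (Clopper-Pearson) 95% intervals. No test between genotypes was possible. Named were the 3 members, every redox gene beyond 2-fold (in a role with none, the 2 with the highest WT level), listed genes within 100000 bp and the 3 most alike genes per member; ties are given too, other genes were named after their values were seen, and 1 gene that the rule names is not reported here. Members and lists were chosen with earlier results of these data known. Alternatives were summed reads, centring, a level filter, other folds, single probes and shared probes. Python 3.11.15, numpy 2.4.6, pandas 2.3.3, scipy 1.17.1 and matplotlib 3.10.9 were used.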

Additional observations from a re-analysis of the deposited data

How the results depend on the processing

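The log2 ratios of Sod2, Gclm and Gsr stayed above 0 and within their counting intervals under every alternative run. For Sod2 and Gclm this was fixed in advance. With 1 probe each, summed reads return the same ratio, and centring subtracts at most 0.05 from every gene. Centring on the median of all genes gave 1.70, 1.69 and 1.32, and summed reads gave 1.28 for Gsr. Leaving out 1 of the 3 probes of Gsr, by rank of reads in each library, gave 1.09 to 1.55, and the tallest probes alone, 20 reads in WT and 21 in tg, gave 0.99, just under 2-fold. For the redox genes beyond 2-fold (15 higher, 10 lower), summed reads gave 13 and 10, and centring 14 and 10. Counting shared probes once left all 72 genes in place and so could not change the 15 and 10. Keeping the 37 genes at or above the median level left 10 higher but 4 lower, from fewer genes. Of all genes at that level 10.2% were higher and 10.8% lower, so the higher share of the redox genes depended on this filter. At 1.5-fold 23 were higher and 15 lower, and at 3-fold 7 and 4. Leaving out X-linked genes, an alternative chosen after seeing the data, gave 15 and 9. No paired analysis was possible because each genotype has 1 library. Depth limits the single genes: 13 to 41 reads per library lie behind the 3 ratios, and their intervals span 2.67 to 4.42 times from end to end. IgG background, replicate spread and probe position were not analysed here.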
